A study of Homo sapiens with 16 samples.

Results

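Small nucleolar RNA host genes were described in HMC3 cells, an immortalised human microglial line, with and without the label of a METTL3 knockout. The members were every gene whose symbol is SNHG followed only by digits, and GAS5, in the deposited gene tables: 29 genes of 60669. METTL3 is the enzyme that places the m6A mark, a methyl group on adenosine, in mRNA and other RNAs. The groups were HMC3 of genotype WT and HMC3 of genotype METTL3 KO, with no other agent or allele named in the labels; how the knockout was made, and whether it is 1 clone, is not given in the sources used here. Each genotype has 3 libraries made from total RNA after removal of ribosomal RNA (rRNA-depleted, with a directional kit) and 5 libraries made by Smart-seq2, which selects polyadenylated RNA. The rRNA-depleted libraries are available here as TPM (reads per base of gene, scaled to the same total in every library), and the poly(A) libraries only through the authors' deposited table of their own comparison. Nothing in the labels says that replicates came from separate cultures, so p-values measure only the spread between these libraries.

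A small nucleolar RNA host gene is transcribed as a long precursor whose introns hold small nucleolar RNAs (snoRNAs). Box C/D snoRNAs guide ribose methylation and box H/ACA snoRNAs guide pseudouridylation of ribosomal and other RNAs; they are trimmed out of the excised introns and kept stable by bound proteins. The spliced exons of most of these hosts encode no long protein, many of the spliced RNAs are engaged by ribosomes at short reading frames and removed by nonsense-mediated decay, and several start with the terminal oligopyrimidine (TOP) tract of ribosomal protein mRNAs, whose translation follows mTORC1 activity. GAS5, named for growth arrest, is the best studied of them.

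The results below turn on 3 box H/ACA snoRNAs inside SNHG17, shown here because their levels can be set beside that of their host. The sequences come from the GENCODE 29 transcripts (GRCh38) and are written 5′ to 3′, with the ACA box at the end in capitals.
SNORA71A: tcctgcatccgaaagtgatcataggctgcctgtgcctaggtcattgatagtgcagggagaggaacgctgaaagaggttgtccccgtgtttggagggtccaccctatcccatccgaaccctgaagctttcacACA
SNORA71C: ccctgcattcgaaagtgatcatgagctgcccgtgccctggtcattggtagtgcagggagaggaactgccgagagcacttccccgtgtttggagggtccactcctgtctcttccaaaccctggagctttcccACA
SNORA71D: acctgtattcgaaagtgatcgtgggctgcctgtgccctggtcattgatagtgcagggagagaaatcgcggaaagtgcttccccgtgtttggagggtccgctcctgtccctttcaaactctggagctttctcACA
All 3 are 134 bases long and lie on the minus strand of chromosome 20, SNORA71A at 38427309 to 38427442, SNORA71C at 38429670 to 38429803 and SNORA71D at 38433865 to 38433998. SNORA71A matched each of the others at 83.1% of aligned positions, and SNORA71C matched SNORA71D at 86.6%, so reads from shared stretches may have been split between them.

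A second set of sequences shows the start sites of 6 hosts, 4 that begin with a pyrimidine tract and 2 that do not. Each window holds 20 bases before and 30 bases from the RefSeq start (GRCh38.p14), on the transcript strand, 5′ to 3′. Capitals mark the tract, here a C at the start base followed without a break by at least 4 bases that are each C or T. The 6 do not stand for all hosts. In the results below SNHG1 and SNHG29 rose without the tract in their windows, and SNHG12 holds it and did not pass the test. SNHG32, which rose, holds it too. GAS5 also rose, but its RefSeq start lies 163 bases outside the GENCODE gene. Its window therefore cannot show whether the measured GAS5 begins with the tract. The RefSeq starts of SNHG12, SNHG20, SNHG29 and SNHG32 lie more than 100 bases inside the gene and may miss its start.
SNHG5: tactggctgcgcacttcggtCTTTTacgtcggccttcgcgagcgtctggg
SNHG19: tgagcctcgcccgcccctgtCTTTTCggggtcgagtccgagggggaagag
SNHG18: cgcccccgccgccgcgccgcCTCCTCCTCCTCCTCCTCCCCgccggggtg
SNHG4: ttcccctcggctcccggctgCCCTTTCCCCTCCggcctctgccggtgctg
SNHG17: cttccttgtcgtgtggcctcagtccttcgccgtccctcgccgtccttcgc
SNHG20: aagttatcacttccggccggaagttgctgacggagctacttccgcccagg
The windows are chr6:85678704-85678753 (minus strand) for SNHG5, chr16:2155329-2155378 (minus strand) for SNHG19, chr5:9546180-9546229 (plus strand) for SNHG18, chr5:139274081-139274130 (plus strand) for SNHG4, chr20:38435299-38435348 (minus strand) for SNHG17 and chr17:77088623-77088672 (plus strand) for SNHG20.

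The rRNA-depleted libraries were shallow: 259574 to 475147 reads in wild type and 496755 to 1228533 in the labelled knockout, recovered from the TPM steps. Knockout libraries 1 and 2 did not differ detectably beyond sampling noise (chi-square of 1.02 per degree of freedom, p = 0.0971 over 11402 genes) and were averaged and counted as 1 sample, which leaves 3 wild-type and 2 knockout samples in every test. METTL3 itself measured 31.2, 31.6 and 25.4 TPM in wild type and 39.2, 40.0 and 42.7 TPM in the labelled knockout (log2 change 0.48, standard error 0.19, limma adjusted p = 0.106), and the two-sided exact permutation p of 0.2 is the smallest this design can give. In the authors' deposited table of the poly(A) libraries its log2 change was 0.09 (adjusted p = 0.654), so METTL3 RNA was lower in the labelled knockout in neither kind of library; RNA outside an edited stretch need not change. Of 12 microglial markers, 8, among them AIF1, CX3CR1, P2RY12, TMEM119 and PTPRC, were listed at 0 in all 6 libraries. The rest had signal: the list summed to 47.0 to 67.3 TPM in wild type and 65.4 to 90.6 TPM in the labelled knockout. Only 1 could be tested, and it did not pass (log2 change 0.35). The 12 fibroblast and mural markers summed to 12042 to 14383 TPM in wild type and 6003 to 6133 TPM in the labelled knockout, most of it COL1A1, with LUM listed at 0; of 8 tested, 3 were higher and 3 lower, with a median log2 change of 0.54; 9 markers of astrocytes, neurons and oligodendrocytes had 3 tested members and no call. The part of these differences in the host gene results was not tested.

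The host genes did not move as a block in the rRNA-depleted libraries. Of the 25 that could be tested, 13 passed the threshold (52.0%, against 35.3% of all 14789 tested genes): 8 were higher in the labelled knockout (against 22.9% of all genes) and 5 were lower (against 12.4%). GAS5, SNHG1, SNHG5, SNHG6, SNHG18, SNHG19, SNHG29 and SNHG32 rose, and SNHG3, SNHG4, SNHG7, SNHG17 and SNHG20 fell. The median log2 change of the 25 was 0.13, against 0.41 for all tested genes. Log2 changes are differences of log2(TPM + 1), labelled knockout minus wild type, tested with limma at a Benjamini-Hochberg adjusted p of 0.05 over all tested genes, and they understate the change of low genes. The median gene was itself higher by 0.41, so a change relative to that median is lower by this amount than the one given: the 8 increases are then 0.36 (SNHG29) to 2.13 (SNHG1) and the 5 decreases -3.04 (SNHG4) to -1.53 (SNHG3). The 29 members together summed to 1586, 1592 and 1691 TPM in wild type and 2003, 1978 and 1792 TPM in the labelled knockout, so the total differed far less than single members did. In bulk RNA, fewer cells that use a gene and less of its RNA per cell cannot be told apart.

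**Figure D1:**
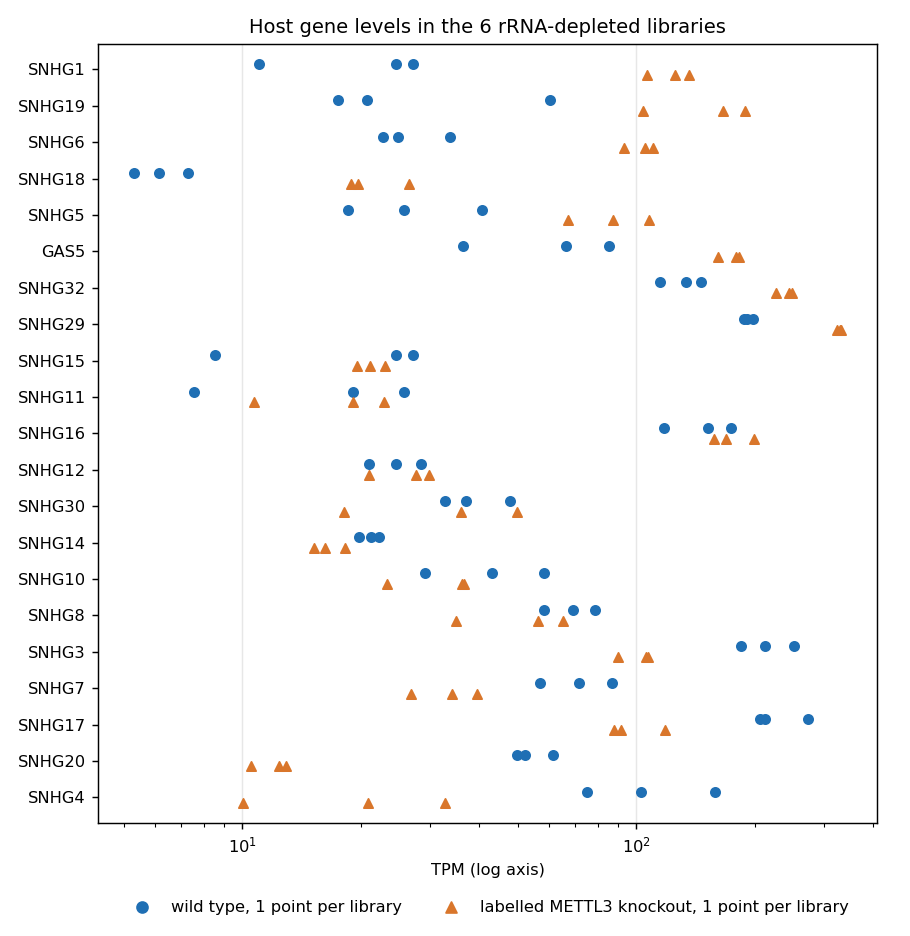
Level of 21 host genes in the 6 rRNA-depleted libraries, in TPM on a log axis, with 1 point per library (circles wild type, triangles labelled METTL3 knockout). Genes are ordered by change: triangles lie right of every circle for the 8 genes at the top and left of every circle for the 5 at the bottom, and the groups overlap for 7 of the 8 between them (SNHG14 is the exception).

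The largest increases on the log2 scale were those of SNHG1 and SNHG19. SNHG1, whose introns encode a series of box C/D snoRNAs, lies on the minus strand of chromosome 11 at 62851988 to 62855914 (GENCODE 29, GRCh38, as for all gene positions here). In libraries 1 to 3 it measured 24.5, 11.02 and 27.1 TPM for wild type and 126, 136 and 107 TPM for the labelled knockout (4 to 17 and 62 to 187 reads). Every knockout library stood well above every wild-type library. The wild-type mean was 20.9 ± 8.63 TPM (SD, n = 3) and the knockout mean 119 ± 17.3 TPM (SD, n = 2), for a log2 change of 2.54 (standard error 0.41, limma adjusted p = 0.0091), 2.13 above the all-gene median. SNHG19, a short gene on chromosome 16 (minus strand, 2154797 to 2155358), measured 20.7, 60.5 and 17.5 TPM against 167, 104 and 189 TPM. Wild-type library 2 was the highest of its group and still below the lowest knockout library, but the wild-type values rest on 1 or 2 reads each. Its log2 change was 2.47 (standard error 0.56, limma adjusted p = 0.0234); without wild-type library 1 or 3 the adjusted p was 0.0625 or 0.0533.

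GAS5 lies on the minus strand of chromosome 1, at 173863900 to 173868882. It measured 66.3, 85.5 and 36.3 TPM in wild type and 183, 179.5 and 162 TPM in the labelled knockout, on 22 to 34 and 91 to 238 reads. The knockout libraries were close together and above the wild-type libraries, of which library 3 was the lowest. The wild-type mean was 62.7 ± 24.8 TPM (SD, n = 3) and the knockout mean 172 ± 13.6 TPM (SD, n = 2), for a log2 change of 1.52 (standard error 0.37, limma adjusted p = 0.0285). This call was among the least stable: the log2 change was 0.70 (adjusted p = 0.241) once the trend with GC content was removed, and the adjusted p was 0.0674 with median ratio scaling, 0.0586 with TPM rescaled over coding and lncRNA genes and 0.0596 without wild-type library 1. ZBTB37 and GAS5-AS1 overlap GAS5 on the other strand, and how the authors counted strand is not given in the sources used here.

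SNHG5, SNHG6 and SNHG18 rose on fewer reads. SNHG5 (chromosome 6, minus strand, 85660950 to 85678748), whose start carries the tract shown above, measured 40.6, 18.5 and 25.7 TPM in wild type and 87.6, 108 and 67.0 TPM in the labelled knockout. The groups did not overlap, and the lowest knockout library was above the highest wild-type one. Its log2 change was 1.56 (standard error 0.37, limma adjusted p = 0.0271), with 1.03 (adjusted p = 0.0686) after the GC trend was removed and an adjusted p of 0.0678 without wild-type library 3. SNHG6, on chromosome 8, measured 22.7, 24.9 and 33.6 TPM against 110, 105 and 93.2 TPM, on 3 to 7 and 18 to 48 reads. Both groups were tight for so few reads, and the log2 change was 1.87 (standard error 0.22, limma adjusted p = 0.0040), with 1.04 once the GC trend was removed. SNHG18 (chromosome 5, plus strand, 9546200 to 9550609) measured 7.26, 5.30 and 6.14 TPM against 18.9, 19.7 and 26.5 TPM. Only 1 or 2 reads stand behind each of its wild-type values, and its log2 change of 1.72 (standard error 0.34, limma adjusted p = 0.0168) was 1.11 with an adjusted p of 0.0866 in a fit to the recovered reads.

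SNHG29 and SNHG32 were the most abundant of the risen hosts and had the smallest changes. SNHG29, listed in GENCODE 29 as LRRC75A-AS1 (chromosome 17, plus strand, 16438822 to 16478678), measured 188, 198 and 191 TPM in wild type and 329.9, 324 and 332 TPM in the labelled knockout. Replicates agreed within about 10 TPM in each group. The wild-type mean was 193 ± 5.06 TPM (SD, n = 3) and the knockout mean 329 ± 3.43 TPM (SD, n = 2), for a log2 change of 0.77 (standard error 0.09, limma adjusted p = 0.0039). Relative to the all-gene median that is 0.36, and after the GC trend was removed it was 0.19 (adjusted p = 0.293). SNHG32, annotated in GENCODE 29 as the protein-coding gene C6orf48 (chromosome 6, plus strand, 31834608 to 31839766), measured 134, 115 and 146 TPM against 249, 245 and 226 TPM. The groups were clearly apart, with a log2 change of 0.85 (standard error 0.14, limma adjusted p = 0.0095), or 0.43 relative to the median; it was 0.71 without the GC trend and 0.49 with median ratio scaling, still past the threshold in both.

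Among the hosts that fell, SNHG20 and SNHG4 had the largest changes. SNHG20 (chromosome 17, plus strand, 77086716 to 77099902) measured 52.2, 49.8 and 61.4 TPM in wild type and 12.9, 10.5 and 12.4 TPM in the labelled knockout, on 15 to 32 and 6 to 12 reads. All knockout values lay far below all wild-type values. The wild-type mean was 54.5 ± 6.14 TPM (SD, n = 3) and the knockout mean 12.1 ± 0.50 TPM (SD, n = 2), for a log2 change of -2.08 (standard error 0.19, limma adjusted p = 0.0024). It was the 1 called host that passed the threshold under all 17 processing alternatives. SEC14L1, which overlaps it on the same strand, went the other way in these libraries (log2 change 0.84, limma adjusted p = 0.0106). In the authors' deposited table of the poly(A) libraries SEC14L1 was lower (log2 change -0.26, adjusted p = 0.0479) and SNHG20 was not called.

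SNHG4 (chromosome 5, plus strand, 139274102 to 139284899) measured 103, 75.2 and 158 TPM in wild type and 20.9, 32.7 and 10.1 TPM in the labelled knockout. Wild-type library 3 was the highest and knockout library 3 the lowest, and the groups did not overlap. The wild-type mean was 112 ± 42.4 TPM (SD, n = 3) and the knockout mean 18.4 ± 11.8 TPM (SD, n = 2), for a log2 change of -2.62 (standard error 0.50, limma adjusted p = 0.0140). Its values rest on 14 to 51 reads in wild type and 3 to 23 in the labelled knockout. The length behind its TPM was solved as 1926 bases, against 4469 merged exon bases in GENCODE 29. SIL1 overlaps it on the other strand and MATR3 on the same strand.

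SNHG17 and SNHG3 were the most abundant hosts in wild type. SNHG17 (chromosome 20, minus strand, 38420588 to 38435353) measured 206, 213 and 273 TPM in wild type and 91.3, 118 and 87.9 TPM in the labelled knockout, on 86 to 191 and 57 to 181 reads. No knockout library came near the wild-type range. The wild-type mean was 231 ± 36.9 TPM (SD, n = 3) and the knockout mean 96.4 ± 11.96 TPM (SD, n = 2), for a log2 change of -1.24 (standard error 0.17, limma adjusted p = 0.0057). SNHG3, which hosts box H/ACA snoRNAs of the SNORA73 family and lies on chromosome 1 (plus strand, 28505980 to 28510892), measured 251, 213 and 184 TPM against 106, 107 and 90.0 TPM. Its groups were as far apart, with means of 216 ± 33.5 TPM (SD, n = 3) and 98.3 ± 11.6 TPM (SD, n = 2) and a log2 change of -1.12 (standard error 0.17, limma adjusted p = 0.0075). SNHG3 lies inside RCC1, the nucleotide exchange factor of the GTPase Ran, on the same strand, and RCC1 was lower too (129 against 93.1 TPM, log2 change -0.46, limma adjusted p = 0.0406).

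SNHG7 (chromosome 9, minus strand, 136721366 to 136728184) measured 71.7, 57.2 and 86.8 TPM in wild type and 39.3, 34.0 and 26.8 TPM in the labelled knockout. The groups did not overlap, and the log2 change was -1.15 (standard error 0.25, limma adjusted p = 0.0198). It was -0.60 (adjusted p = 0.0959) without the GC trend, and the adjusted p was 0.0550 without wild-type library 1. Across all 14669 genes with a GC value the log2 change fell with GC content (Spearman correlation -0.37 across genes, which are not independent replicates), from a median of 1.15 in the lowest of 5 bins to -0.24 in the highest. With this trend removed, 9 of the 13 hosts still passed the threshold in the same direction. Leaving out knockout library 3, which leaves a single averaged knockout sample that is assumed to vary like the wild type, kept the call for SNHG20 and SNHG29 only, with no change of sign in the other 11.

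**Figure D2:**
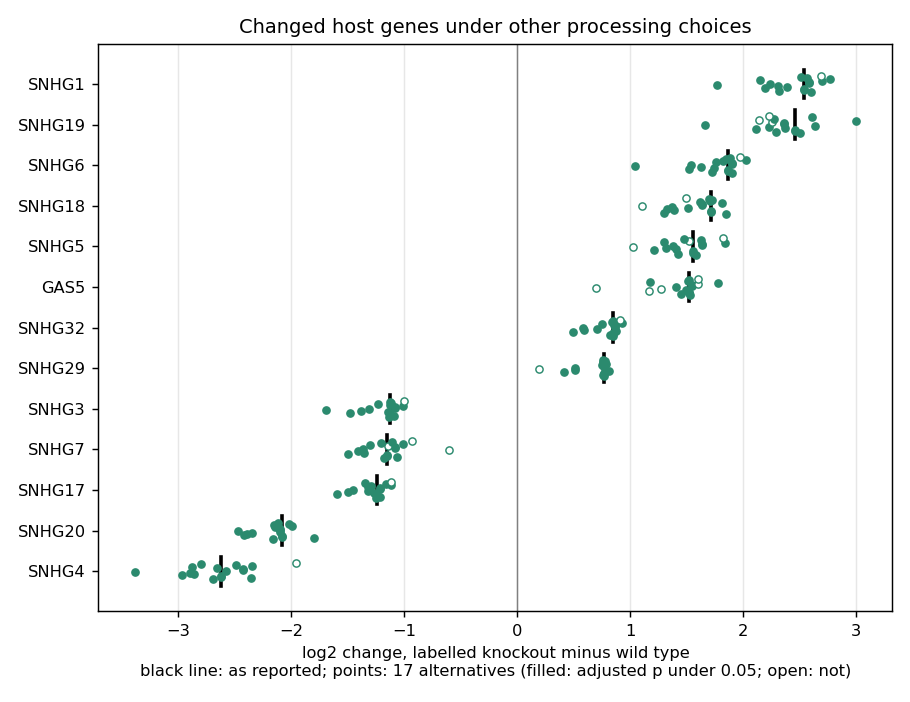
Log2 change (labelled knockout minus wild type) of the 13 called hosts as reported (black line) and under 17 processing alternatives (1 point each, filled where the limma adjusted p is under 0.05). No point crosses 0; the open points are 23 of 221, and 11 of them come from leaving out knockout library 3.

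The other 8 hosts with enough reads did not pass the test. SNHG16 was the most abundant, at 152, 118 and 174 TPM in wild type and 169, 199 and 158 TPM in the labelled knockout (log2 change 0.22, limma adjusted p = 0.418). Knockout libraries 1 and 3 lay inside the wild-type range and library 2 above it. SNHG14, the very long host of the SNORD115 and SNORD116 clusters in the imprinted region of chromosome 15, measured 22.3, 19.8 and 21.3 TPM against 15.2, 18.2 and 16.2 TPM. Its groups did not overlap, and its log2 change of -0.34 had a limma adjusted p of 0.288; in the fit to recovered reads it was -0.60 (adjusted p = 0.000174) and with the GC trend removed -1.01 (adjusted p = 0.0250). Groups were free of overlap for 14 of the 25 tested hosts (56.0%, against 62.7% of all tested genes, knockout libraries 1 and 2 averaged): the 8 that rose (against 41.1% of all genes free of overlap upward), the 5 that fell and SNHG14 (against 21.6% downward).

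SNHG8 had 69.1, 78.5 and 58.4 TPM in wild type and 65.4, 56.4 and 34.98 TPM in the labelled knockout, with a log2 change of -0.55 (limma adjusted p = 0.181). SNHG10 had 29.1, 58.5 and 43.1 TPM against 36.2, 36.6 and 23.2 TPM, with a log2 change of -0.51 (limma adjusted p = 0.319). In both, the groups overlapped and knockout library 3 was the lowest of the 6. SNHG30 had 32.7, 47.8 and 36.9 TPM against 18.1, 35.9 and 49.8 TPM, so its knockout libraries spread around the wild-type ones (log2 change -0.07, limma adjusted p = 0.877). SNHG12 stayed between 21.0 and 29.8 TPM in all 6 libraries (log2 change 0.01, limma adjusted p = 0.985). SNHG15 measured 27.2, 8.51 and 24.6 TPM against 21.1, 19.5 and 23.0 TPM (log2 change 0.25, limma adjusted p = 0.744), wild-type library 2 being the one apart. SNHG11 measured 7.55, 25.8 and 19.1 TPM against 19.1, 10.7 and 23.0 TPM (log2 change 0.23, limma adjusted p = 0.778), with overlap throughout. For SNHG11, SNHG12, SNHG15, SNHG16 and SNHG30 the sign itself changed under some of the other settings.

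Of the remaining hosts, SNHG22, SNHG25, SNHG26 and SNHG31 were tested on at most 14 reads in a library, and the lowest limma adjusted p among them was 0.208. SNHG9, SNHG21, SNHG27 and SNHG28 were not tested, with at most 6 reads in a library. SNHG9 was listed at 0 in all 3 wild-type libraries, where a count of 0 allows up to 38.6, 56.3 and 32.6 TPM (3 reads, counting error only), and had 3, 0 and 1 reads in the labelled knockout. SNHG27 was at 0 in all 6 libraries. With no filter on low values, SNHG9 passed the test as higher in the labelled knockout (limma adjusted p = 0.0168) on the few reads just given, and no other of these 8 genes did. SNHG9 entered that fit only through its knockout reads, so its call lends no support to a rise.

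The order of the hosts by level differed between the groups. TPM is per base of gene length, such as 3756 merged exon bases for SNHG1 and 342 for SNHG19. That length need not be the length of the spliced RNA, so the order between hosts is only approximate. In wild type the highest were SNHG17 (231 TPM), SNHG3 (216 TPM), SNHG29 (193 TPM), SNHG16 (148 TPM), SNHG32 (132 TPM) and SNHG4 (112 TPM). SNHG17 and SNHG3 differed by less than their SDs of 36.9 and 33.5 TPM, and so did SNHG16 and SNHG32, with SDs of 28.4 and 15.8 TPM. In the labelled knockout the order began with SNHG29 (329 TPM), SNHG32 (237 TPM), GAS5 (172 TPM), SNHG16 (171 TPM), SNHG19 (162 TPM) and SNHG1 (119 TPM); GAS5, SNHG16 and SNHG19 lay within their SDs of 13.6, 18.6 and 37.8 TPM. SNHG1 ranked 19 of 29 in wild type and 6 in the labelled knockout, GAS5 ranked 9 and 3, SNHG17 ranked 1 and 9, and SNHG4 ranked 6 and 19.

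The small RNAs held inside the hosts were measured in the same libraries, but few had reads. GENCODE 29 places 139 snoRNAs and related small RNAs on the same strand inside 27 of the hosts, 84 of them in SNHG14. Of 44 that lie whole within an annotated exon of their host, 42 were listed at 0 in all 6 libraries, and 2 (4.55%) had any read. Of the 95 that do not, 22 (23.2%) had any read. How the authors assigned a read that overlaps both a host exon and a snoRNA is not given in the sources used here, so for those 44 a read from the snoRNA and a read from its host cannot be told apart. This bears on hosts whose annotated exons cover most of the gene: the merged exons span 95.6% of SNHG1, 83.2% of SNHG3 and 72.9% of GAS5, against 28.3% of SNHG17. For GAS5, RefSeq lists 11 snoRNAs inside the gene, 9 of them whole within the merged exons.

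In SNHG17, the 3 SNORA71 snoRNAs shown above fell, as their host did. SNORA71A measured 7982, 10812 and 7104 TPM in wild type and 325, 245 and 627 TPM in the labelled knockout, on 140 to 159 and 12 to 13 reads. The 2 groups were separated by a wide gap, with a log2 change of -4.33 (standard error 0.38, limma adjusted p = 0.0021). SNORA71C measured 3647, 2549 and 2725 TPM against 325, 164 and 48.2 TPM (log2 change -4.74, standard error 0.67, limma adjusted p = 0.0063). SNORA71D measured 1691, 3166 and 1072 TPM against 150.1, 164 and 241 TPM (log2 change -3.20, standard error 0.48, limma adjusted p = 0.0074), and again no knockout value reached the wild-type range. Whether the change of a snoRNA differs from that of SNHG17 (-1.24) was not tested, and since a TPM of so short a gene weighs each read heavily, levels are given beside the reads. A further family member in SNHG17, SNORA71B, named after its values were seen, had 0, 38.05 and 44.02 TPM in wild type and 98.6, 90.6 and 71.2 TPM in the labelled knockout, on at most 9 reads (limma adjusted p = 0.271). Its values thus lay on the other side from those of the 3 that fell, without passing the test. Among 58 other tested snoRNA genes, 13 rose and 10 fell (39.7% called, against 35.3% of all tested genes), with a median log2 change of 1.87. A gene at 0 in wild type could meet the filter only through the knockout libraries, which were deeper. How many did so was not counted, so this median does not show a rise. The 850 other snoRNA genes listed summed to 24855, 27853 and 25683 TPM in wild type. In the labelled knockout they summed to 9433, 8887 and 7229 TPM, so a lower level was not particular to SNHG17. Leaving out knockout library 3 ended the call of SNORA71D (adjusted p = 0.0891) and of neither other.

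The small RNAs of 2 further hosts had 10 or more reads in a library. SNORA73B, a box H/ACA RNA inside SNHG3 (chromosome 1, plus strand, 28508559 to 28508762), measured 3819, 3094 and 3111 TPM in wild type and 2382, 2444 and 2849 TPM in the labelled knockout. Its groups lay side by side without overlap, and its log2 change of -0.34 did not pass the test (standard error 0.16, limma adjusted p = 0.147). That value depended on the scaling: median ratio scaling gave -0.70 (adjusted p = 0.0343), the fit to recovered reads -0.67 (adjusted p = 0.000115), removal of the GC trend -0.18 (adjusted p = 0.470) and quantile normalization 0.030 (adjusted p = 0.891). SCARNA13, a Cajal body RNA inside SNHG10 (chromosome 14, minus strand, 95533355 to 95533629), measured 515, 715 and 566 TPM against 975, 936 and 1010 TPM. It rose (log2 change 0.73, standard error 0.16, limma adjusted p = 0.0224) while SNHG10 gave -0.51 without passing the test, but 6 of the 17 alternatives ended the call, among them median ratio scaling (0.37, adjusted p = 0.185) and removal of the GC trend (0.24, adjusted p = 0.440). SNORD116-1 and SNORD116-13 inside SNHG14 had fewer than 10 reads in every library and 0 reads in each wild-type library. In the knockout libraries they had 2, 2 and 3 reads and 4, 3 and 1 reads. They met the filter only through the knockout libraries. Their limma calls as higher (adjusted p = 0.0021 and 0.0012) therefore lend no support to a rise. Both were named after their values were seen.

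**Figure D3:**
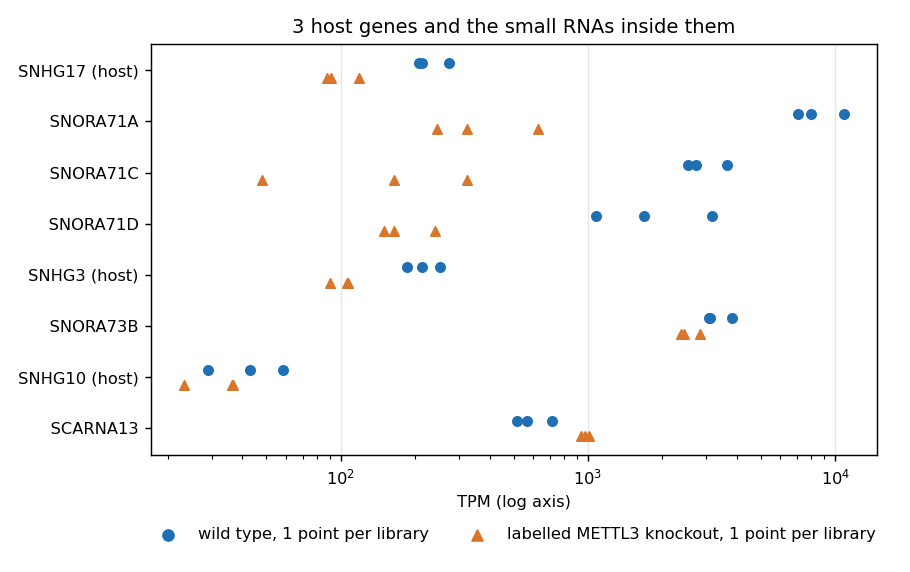
Levels of SNHG17, SNHG3 and SNHG10 and of the 5 small RNAs inside them that had at least 10 reads in a library, in TPM on a log axis, 1 point per rRNA-depleted library (circles wild type, triangles labelled METTL3 knockout). The triangles of SNORA71A, SNORA71C and SNORA71D lie at or below 627 TPM and their circles at or above 1072 TPM, while those of SNORA73B nearly meet and those of SCARNA13 are shifted up.

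The poly(A) libraries gave another picture of the same hosts. In the authors' deposited table, 27 members have an adjusted p and 5 passed 0.05 (18.5%, against 19.9% of all 14009 genes with one): 2 were higher in the labelled knockout (against 9.55%) and 3 lower (against 10.3%), which is near the background. The table does not name its numerator; a positive value was read as higher in the labelled knockout because then 91.5% of 177 genes share a sign between the library types, these being the genes called in both whose log2 change is 1 or more in size in each. SNHG17 was lower there too: the authors' deposited table gives -0.79 on the log2 scale (standard error 0.09, adjusted p = 6.19e-17) at a mean normalized count of 240. SNHG32 was lower there (log2 change -0.59, standard error 0.17, adjusted p = 0.0065, the authors' deposited table), the opposite of its sign in the rRNA-depleted libraries. SNHG4 was higher in the authors' deposited table (log2 change 1.39, standard error 0.40, adjusted p = 0.0041) at a mean normalized count of only 9.86, again opposite to the rRNA-depleted libraries. Whether the 2 library types differ was not tested, since no poly(A) library has values of its own here.

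SNHG14 and SNHG9 were the other 2 calls. SNHG14 was higher, at 0.61 on the log2 scale in the authors' deposited table (standard error 0.14, adjusted p = 0.000375) at a mean normalized count of 161, while its rRNA-depleted value was -0.34. SNHG9, untested in the rRNA-depleted libraries, was lower in the authors' deposited table by -1.50 on the log2 scale (standard error 0.56, adjusted p = 0.0377) at a mean normalized count of 5.01. The other abundant hosts did not pass: in the authors' deposited table the log2 change was 0.11 for GAS5 (adjusted p = 0.549), 0.27 for SNHG1 (adjusted p = 0.0554), 0.12 for SNHG3 (adjusted p = 0.556), -0.09 for SNHG5 (adjusted p = 0.735) and -0.23 for SNHG29 (adjusted p = 0.242). Of the 13 hosts called in the rRNA-depleted libraries, 3 were called in both kinds of library, and SNHG17 is the 1 of these with the same sign in both.

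**Figure D4:**
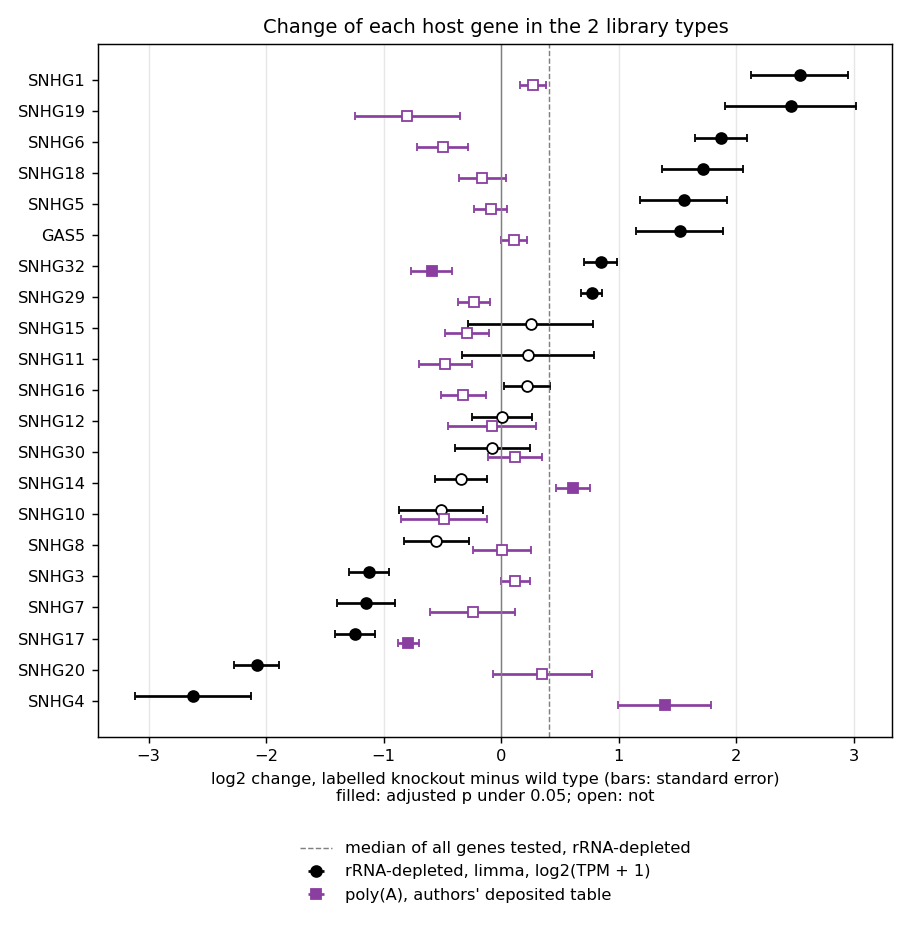
Log2 change (labelled knockout minus wild type) of 21 host genes in the rRNA-depleted libraries (circles, limma) and in the authors' deposited table of the poly(A) libraries (squares), with standard errors as bars; filled symbols have an adjusted p under 0.05 and the dashed line is the median of all tested genes, 0.41. The circles span -2.62 to 2.54, while the squares of these genes lie between -0.80 and 1.39.

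The start tract shown above was looked for in the RefSeq start windows of the members; the motif was chosen after the values were seen. It is the first base and those that follow it on the transcript strand, C then at least 4 of C or T, and 1429 of all 35116 RefSeq windows hold it (4.07%). Of 25 members with a window, 6 hold it (24.0%): 4 of 7 hosts that rose (SNHG5, SNHG18, SNHG19 and SNHG32), 1 of 5 that fell (SNHG4), 1 of 10 that did not pass (SNHG12) and 0 of 3 that were not tested. Of 55 windows of protein-coding snoRNA hosts, 19 hold it (34.5%). The RefSeq starts of GAS5, SNHG14 and SNHG27 lie 163, 154975 and 8464 bases outside the GENCODE 29 gene, and those of SNHG3, SNHG16 and SNHG4 lie 37, 2 and 1 bases outside. Without the first 3, which are more than 100 bases outside, the counts were 4 of 6, 1 of 5, 1 of 9 and 0 of 2. Starts inside the gene were kept at any distance, and those of SNHG12, SNHG20, SNHG28, SNHG29 and SNHG32 lie more than 100 bases inside. For SNHG12 the RefSeq start is 28581873 against 28583132 in GENCODE 29. For SNHG20 it is 77088643 against 77086716, and for SNHG32 it is 31834916 against 31834608. These windows may miss the start of the measured gene.

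Other genes of the same pathways were counted from lists chosen with earlier results of these data known. Of 3 noncoding hosts outside the SNHG names, ZFAS1 rose (23.7 ± 3.46 to 76.1 ± 5.79 TPM, log2 change 1.65, limma adjusted p = 0.0039), DANCR rose (1.01, limma adjusted p = 0.0494) and EPB41L4A-AS1 fell (-1.28, limma adjusted p = 0.0315). In the authors' deposited table ZFAS1 and DANCR were lower, by -0.69 (adjusted p = 0.0011) and -0.43 (adjusted p = 0.0058). Of 50 protein-coding snoRNA hosts, mostly ribosomal protein and translation factor genes, 31 rose, 6 fell and 13 did not pass, with a median log2 change of 0.98 against 0.41 for all genes. EEF1B2 (2.44) and HSPA8 (2.35) were among those that rose, and RPL17 (-3.08), RPSA (-2.72) and CWF19L1 (-2.53) fell most. The authors' deposited table has 8 of these 50 higher and 17 lower. For comparison, of 1505 other tested lncRNA genes 166 rose and 218 fell (25.5% called), with a median log2 change of -0.11, and 36.4% of 11783 protein-coding genes were called, with a median of 0.48.

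Of 21 factors of nonsense-mediated decay, 12 rose, 2 fell and 7 did not pass (median log2 change 0.81), where 22.9% of all tested genes were higher and 12.4% lower. MAGOHB, an exon junction core protein, rose by 3.95 and the release factor ETF1 by 2.39, whereas RBM8A, the partner of MAGOH proteins, changed by -2.48 and UPF3A by -1.31. Of 18 known targets of this decay other than GAS5, 7 rose, 4 fell and 7 did not pass (median 0.27), with CARS1 at 2.12 and DDIT3 at 1.86, and with UPP1 at -2.12 and ATF4 at -1.77. Of 18 snoRNP proteins, 8 rose, 2 fell and 8 did not pass (median 0.89): NOP10 of the box H/ACA core rose by 3.22 and NOP58 of the box C/D core by 1.66, and the assembly factor PIH1D1 changed by -1.75. Of 16 regulators of TOP mRNAs and mTORC1, 7 rose, none fell and 9 did not pass (median 0.85), led by TIA1 at 3.47 and the kinase gene RPS6KB1 at 2.42. In the authors' deposited table the counts of higher and lower genes were 2 and 4 for the decay factors, 1 and 4 for the decay targets, 5 and 3 for the snoRNP proteins and 1 and 1 for the TOP and mTORC1 regulators, where 9.55% of all genes in it were higher and 10.3% lower.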

How the data were processed

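The authors deposited TPM for 6 rRNA-depleted libraries and, for the poly(A) libraries, a table of their own comparison with a mean normalized count (a signal scaled by the authors), the log2 fold change and its error, the Wald score, the p-value and its adjusted value for each gene, per the file headers. Trimmomatic, STAR and DESeq2 and the build hg38 are named per the submitters' processing notes; the counter, annotation and strand setting are not given in the sources used here. Both tables hold 60669 genes, of which 56927 identifiers (93.8%) matched GENCODE 29.

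Whole reads were recovered from the deposited TPM: with the merged exon lengths of GENCODE 29, 89.8% of values above 0 were whole reads within 0.001 of a read, and 100% were once the remaining lengths were solved from the TPM steps. For 7 members (SNHG4, SNHG5, SNHG12, SNHG14, SNHG20, SNHG28 and SNHG30) the length was solved in this way as the smallest that gives whole reads, so their reads could be a multiple of those given. TPM were tested as log2(TPM + 1) with limma 3.58.1 (R 4.3.3, trended eBayes) over the 14789 genes that reached 1 TPM in 3 or more libraries, with Benjamini-Hochberg adjustment and a threshold of 0.05. Tested on simulated reads, the fit recovered 25.5% of 200 genes changed by 2 on the log2 scale among 14789 genes, and 61.5% among the 10911 with at least 5 reads. Only 200 genes were changed there, against 5220 called in the data. The adjusted threshold depends on that share, so these rates need not hold for the reported fit. Members and lists were chosen with earlier results of these data known. Per-library values are given for members with a mean of at least 10 reads in a group, and poly(A) values for those called or with a mean normalized count of at least 50; of each other list, the called genes with the largest change were named, at most 3 in each direction. Some values of these lists are not reported here. Alternatives changed the pseudocount, filter, scaling, GC trend, test and libraries.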

Additional observations from a re-analysis of the deposited data

How the results depend on the processing

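The 13 called hosts kept their sign under all 17 alternatives, and 198 of 221 values passed the threshold. Removing the GC trend left 1913 genes higher and 5 members higher (from 3382 and 8); the fit to recovered reads called 3572 genes lower (from 1838). Leaving out 1 library gave 1004 to 3356 genes higher, 659 to 1829 lower, 1 to 8 members higher and 1 to 5 lower, the low ends without knockout library 3. The split of higher to lower calls was 3382 to 1838 with deposited TPM, 2362 to 2499 with median ratio scaling, 2651 to 2442 with quantile normalization, 2561 to 2260 with TPM rescaled over coding and lncRNA genes and 1913 to 2031 without the GC trend, where the median log2 change of all genes was 0.11, 0.07, 0.21 and 0.13 in place of 0.41. Signs turned among uncalled results: SNHG11 gave -0.11 with median ratio scaling, -0.12 with quantile normalization, -0.0083 rescaled, -0.26 with recovered reads, -0.25 without wild-type library 1 and -0.07 without knockout library 3 (0.57 without wild-type library 2); SNHG12 gave -0.33, -0.32, -0.24 and -0.17 in the first 4 of these settings, -0.10 without wild-type library 1 and -0.02 without knockout library 1 (0.22 without knockout library 3). SNHG15 gave -0.084 with median ratio scaling, -0.12 with quantile normalization, -0.038 without the GC trend, -0.25 with recovered reads and -0.25 without wild-type library 2 (0.54 without wild-type library 1). SNHG16 gave -0.13 with median ratio scaling, -0.032 rescaled, -0.44 without the GC trend and -0.012 with recovered reads. SNHG30 gave 0.08 without wild-type library 2 and 0.12 without knockout library 1 (-0.50 without knockout library 3), SNORA73B gave 0.030 with quantile normalization, and METTL3 gave -0.31 without the GC trend. METTL3 passed the threshold with 6 separate libraries (0.46, limma adjusted p = 0.0486). The cause was not tested. In the authors' deposited table, an adjusted p under 0.01 left 854 genes higher and 957 lower, and an absolute log2 change of at least 1 left 374, 273 and 2 members.

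Replicate numbers did not pair the samples (correlations of deviations 0.0203, -0.0205 and 0.0082 between same-numbered libraries). With the replicate number as a block, 4037 genes were higher and 2000 lower, against 4633 and 2247 for 6 libraries without it, and all 13 called hosts passed. No paired analysis was possible for the poly(A) libraries because the authors' table holds no values of single libraries, and leaving out replicates was not run there for the same reason. The depth limits the low hosts: with 1 to 7 reads in a wild-type library, SNHG6, SNHG18 and SNHG19 have levels known only to within a few reads.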
